A study of Mus musculus with 13 samples.

Results

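A set of 10 genes of cytotoxic and innate-like lymphocytes were followed across thymic lymphomas and normal mouse thymus. They are Gzma, Gzmb, Prf1, Nkg7, Klrd1, Ncr1, Xcl1, Ccl5, Tbx21 and Zbtb16, 10 of the 43629 genes of the deposited table, found there by their gene symbols. The genes were chosen from results of these same libraries, that is from their levels in thymus and lymphomas, so their own levels and differences are given as a description, without a test. Gzma went up and most of the others went down. The normalized count of Gzma was between 3663 and 6931 in Atm-/- lymphomas against 1105 to 1296 in thymus, while Nkg7 was between 2 and 11 against 643 to 703 and Gzmb between 0 and 2 against 120 to 159.

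RNA sequencing was available for 13 libraries in 3 groups, made from the polyA RNA of single-cell suspensions. The WT group was 3 thymuses of wild-type C57BL/6 mice, libraries that were re-used from another series. The Atm-/- group was 5 thymic lymphomas of mice without the DNA damage kinase Atm, of strain 129S6/SvEv. The Rag2c/c p53-/- group was 5 thymic lymphomas of mice that lack p53 and carry a RAG2 with a truncated C terminus, on a mixed C57BL/6 and 129S6/SvEv background. Every lymphoma came from a different mouse, and ages were not given in the sources used here. Strain and series of origin go with the group, so genotype, transformation, strain and series cannot be told apart in any comparison with WT thymus. Between the lymphoma groups, genotype and strain cannot be told apart either. The groups were compared to ask how lymphomas of each genotype differ from thymus and from each other.

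Values are normalized counts, that is reads per gene divided by the authors' size factor of each library and rounded to whole numbers. They add up to between 19788898 and 21591289 per library, which corresponds to an estimated 6.35 to 34.2 M reads on genes. A single read was worth 0.592 to 3.38 normalized counts, so a gene listed at 0 may have had up to 3 expected reads, a level of 1.78 to 10.1 depending on the library, and this covers counting error only. The mean of Atm was 1941 ± 360 (SD, n = 3) in WT thymus, 497 ± 192 (n = 5) in Atm-/- lymphomas and 942 ± 413 (n = 5) in Rag2c/c p53-/- lymphomas. Trp53 had means of 5075 ± 1098, 8934 ± 1981 and 3568 ± 1330 in the same order, and reads over a whole gene do not show whether an allele is disrupted.

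Cytotoxic lymphocytes, the natural killer (NK) cells and cytotoxic CD8+ T cells, kill through granules. Perforin opens the target membrane and granzymes, a family of serine proteases, enter and cleave proteins in the target cell. In the thymus, cells of this kind are rare next to the immature CD4+CD8+ thymocytes, and innate-like T cells such as NKT cells and γδ T cells acquire part of the same program during their development. Tbx21 encodes T-bet, a T-box transcription factor of type 1 and cytotoxic cells, and Zbtb16 encodes PLZF, the factor that directs NKT cells.

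The promoters of the granzymes and of Nkg7 are shown because these genes stood at the opposite ends of the range. RefSeq promoters (GRCm38.p6) were found for 7 of the 10 genes, and none was found for Ccl5, Klrd1 and Zbtb16. Each sequence gives the 250 bases before the transcription start, 5′ to 3′ on the strand of the gene, in lower case, with capitals for matches to a T-box core (TCACACC), a Runx site (TGTGGTT) or an AP-1 site (TGANTCA), searched on both strands.
Gzma, minus strand, chr13:113100982-113101231: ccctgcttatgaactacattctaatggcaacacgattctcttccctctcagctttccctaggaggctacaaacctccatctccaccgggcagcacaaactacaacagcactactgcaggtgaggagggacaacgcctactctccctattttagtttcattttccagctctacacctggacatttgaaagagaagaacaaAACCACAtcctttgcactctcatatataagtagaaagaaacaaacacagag
Gzmb, minus strand, chr14:56262335-56262584: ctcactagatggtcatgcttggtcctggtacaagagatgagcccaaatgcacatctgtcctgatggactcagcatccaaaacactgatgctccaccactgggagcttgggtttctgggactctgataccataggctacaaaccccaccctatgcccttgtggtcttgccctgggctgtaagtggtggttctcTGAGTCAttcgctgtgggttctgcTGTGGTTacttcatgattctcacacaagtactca
Nkg7, plus strand, chr7:43436888-43437137: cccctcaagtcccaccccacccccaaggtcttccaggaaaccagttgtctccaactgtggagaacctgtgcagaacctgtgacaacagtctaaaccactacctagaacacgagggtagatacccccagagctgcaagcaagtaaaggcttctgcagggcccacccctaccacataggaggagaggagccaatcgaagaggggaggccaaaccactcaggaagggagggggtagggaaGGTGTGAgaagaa
The Runx match lay 51 bases before the RefSeq start in Gzma and 34 bases before it in Gzmb, where an AP-1 match lay at 58 bases. The T-box match of Nkg7 lay at 13 bases. RefSeq starts can differ from the genes as counted here. Nkg7 as counted begins at 43437073, so its T-box match lies within the counted gene. Gzmb as counted ends at 56262260, short of the sequence shown. Runx letters were found in 4 of the 7 genes (Gzma, Gzmb, Xcl1 and Ncr1) and in 4.40% of 32851 RefSeq starts, T-box letters in 2 (Nkg7 and Xcl1) and in 3.33%, and AP-1 letters in 1 and in 6.75%. The Runx match is thus shared by the granzyme that was high in the lymphomas and by the granzyme that was low. A match is a run of letters and not an occupied site.

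The granule genes were led by Gzma (ENSMUSG00000023132, chromosome 13 from 113093825 to 113100979, GRCm38), which encodes the tryptase granzyme A. Its normalized counts were 1163, 1296 and 1105 in the 3 thymuses, then 6060, 3663, 6931, 5225 and 6491 in Atm-/- lymphomas 1 to 5, and 2067, 9703, 2457, 5092 and 3314 in Rag2c/c p53-/- lymphomas 1 to 5. All 10 lymphomas lay above all 3 thymuses, and Rag2c/c p53-/- lymphoma 2 was the highest library. The difference from WT on the scale of log2(value + 1) was 2.22 ± 0.40 (SE) for Atm-/- lymphomas and 1.69 ± 0.40 for Rag2c/c p53-/- lymphomas. The lymphoma groups overlapped, and the Rag2c/c p53-/- lymphomas ranged over 4.69-fold against 1.89-fold in Atm-/- lymphomas. Per kilobase of exon, Gzma had the highest mean level of the 10 genes in every group, 1181 in WT thymus, 5640 in Atm-/- lymphomas and 4500 in those of Rag2c/c p53-/- mice.

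Gzmb (ENSMUSG00000015437, chromosome 14 from 56258856 to 56262260) encodes granzyme B, the granzyme that cleaves after aspartate and activates caspases. It was at 159, 159 and 120 in thymus, at 0, 0, 2, 0 and 1 in Atm-/- lymphomas and at 10, 3, 6, 1 and 7 in Rag2c/c p53-/- lymphomas. Every lymphoma was below every thymus, and the Atm-/- lymphomas were at or under 3 in all 5 libraries. An estimated 409 reads in the thymuses stood against 2 reads in the Atm-/- lymphomas, a ratio of 259 with an exact 95% counting interval of 71.1 to 2142. For Rag2c/c p53-/- lymphomas the ratio was 21.4 (14.5 to 32.9). Such intervals, here and below, cover only the counting of reads pooled over the libraries of a group. They do not cover the spread between mice, and they rest on the estimated worth of a read. Gzma and Gzmb therefore moved in opposite directions in each of the 10 lymphomas. In bulk RNA, fewer cells of a type and less RNA per cell cannot be told apart.

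Prf1 (ENSMUSG00000037202) encodes perforin, the pore that lets granzymes in. It was at 237, 208 and 218 in thymus and at 94, 283, 12, 81 and 12 in Atm-/- lymphomas. Atm-/- lymphoma 2 stood above the thymuses, whereas lymphomas 3 and 5 were the lowest of all 13 libraries. In Rag2c/c p53-/- lymphomas Prf1 was at 83, 51, 50, 65 and 52, all below thymus and within a 1.66-fold range. Against WT the log2 difference was -2.10 ± 0.82 (SE) in the first lymphoma group and -1.88 ± 0.82 in the second. The Atm-/- value moved between -2.71 without lymphoma 2 and -1.60 without lymphoma 3. Nkg7 (ENSMUSG00000004612) encodes a membrane protein of cytotoxic granules. It was at 703, 689 and 643 in thymus, at 6, 11, 3, 2 and 3 in Atm-/- lymphomas and at 9, 24, 15, 18 and 22 in Rag2c/c p53-/- lymphomas. No lymphoma came near a thymus, and the log2 differences, -7.01 ± 0.48 (SE) and -5.26 ± 0.48, were the most negative of the 10 genes in each lymphoma group on this scale, which understates the change of genes near 0. On the ratio of estimated reads, Nkg7 was 140-fold (exact 95% counting interval 88.5 to 237) lower in Atm-/- and 40.3-fold (31.8 to 51.9) lower in Rag2c/c p53-/- lymphomas. In Atm-/- lymphomas the ratios of Gzmb (259) and Xcl1 (275) were larger, but each rests on 2 lymphoma reads.

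**Figure D1:**
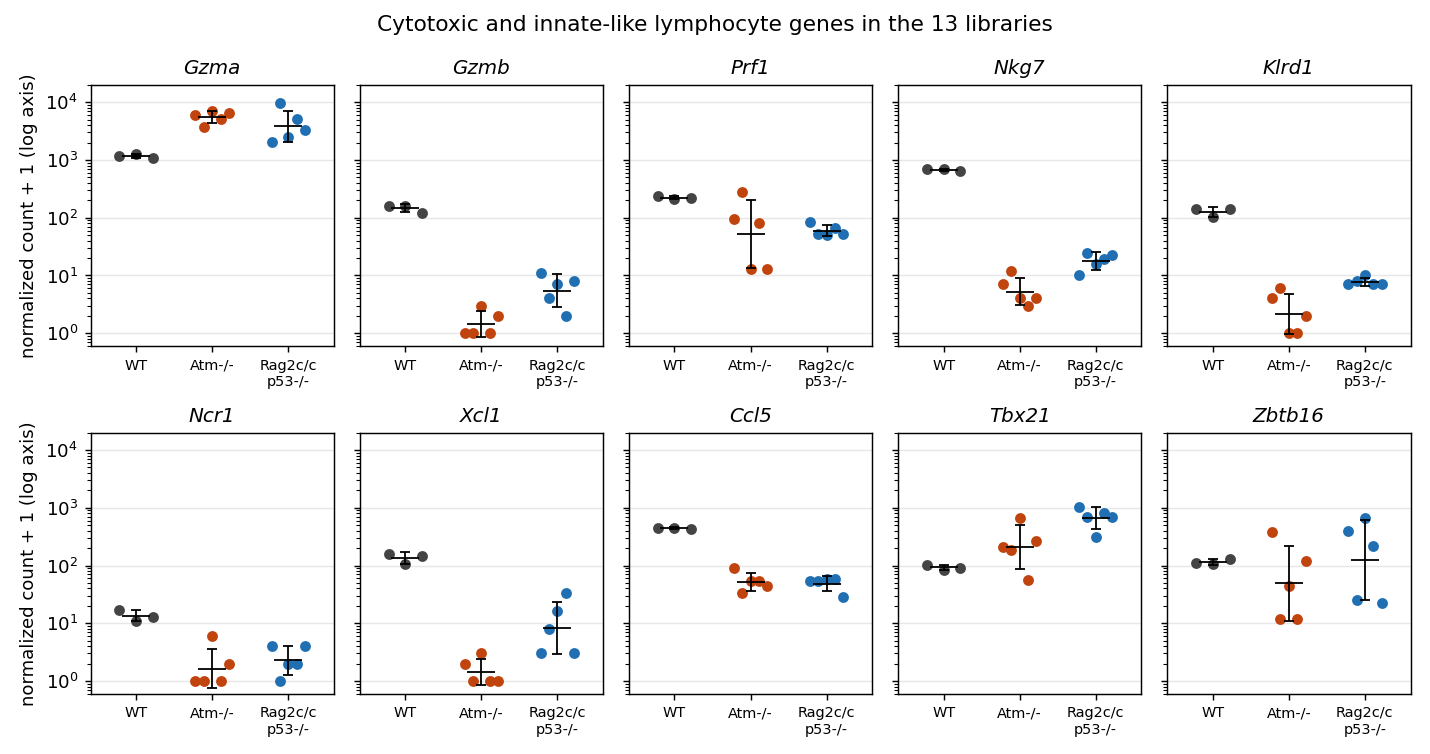
Normalized count plus 1 (log axis) of the 10 genes in each library, for 3 WT thymuses, 5 Atm-/- lymphomas and 5 Rag2c/c p53-/- lymphomas. Points are libraries, and bars give the mean ± SD of log2(value + 1). Gzma is above thymus in all 10 lymphomas, Nkg7, Gzmb, Klrd1, Xcl1, Ccl5 and Ncr1 are below thymus in all 10, and Zbtb16 spreads to either side.

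The NK receptor genes were near 0 in the lymphomas. Klrd1 (ENSMUSG00000030165, chromosome 6) encodes CD94, which pairs with NKG2 receptors, and was at 141, 101 and 140 in thymus. It was at 3, 5, 0, 0 and 1 in Atm-/- and at 6, 7, 9, 6 and 6 in Rag2c/c p53-/- lymphomas. All Rag2c/c p53-/- lymphomas were above all Atm-/- lymphomas, the only gene of the 10 for which the lymphoma groups did not overlap. The levels were close to the worth of 1 to 3 reads in the shallow libraries, and Rag2c/c p53-/- lymphoma 2, at 7, is the library in which a read was worth 3.38. Ncr1 (ENSMUSG00000062524) encodes NKp46, an activating receptor that marks NK cells. Its counts were 16, 10 and 12 in thymus, 0, 0, 5, 0 and 1 in Atm-/- and 3, 0, 1, 1 and 3 in Rag2c/c p53-/- lymphomas. Ncr1 was the lowest of the 10 genes per kilobase in thymus, with a mean of 8.23 normalized counts per kilobase, and its ratio of thymus to Atm-/- lymphomas, 12.3, had a counting interval of 4.45 to 47.5.

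Among the chemokines, Xcl1 (ENSMUSG00000026573, chromosome 1), the lymphotactin that attracts cross-presenting dendritic cells, was at 159, 104 and 145 in thymus. It was at 1, 0, 2, 0 and 0 in Atm-/- and at 2, 7, 15, 32 and 2 in Rag2c/c p53-/- lymphomas. Every lymphoma was below thymus, and Rag2c/c p53-/- lymphoma 4 kept the highest level. The ratio of thymus to Atm-/- lymphomas was 275 (75.7 to 2278, on 2 lymphoma reads) and that to Rag2c/c p53-/- lymphomas 14.3 (10.4 to 20.1). The second interval is of pooled reads and is narrow next to the range of 2 to 32 between those lymphomas. Ccl5 (ENSMUSG00000035042), also called RANTES, a chemokine of memory and effector T cells, was at 451, 452 and 424 in thymus. It was at 89, 32, 53, 53 and 43 in Atm-/- and at 52, 54, 57, 57 and 27 in Rag2c/c p53-/- lymphomas. Ccl5 was thus below thymus in all lymphomas but well above 0 in each, with log2 differences from WT of -3.09 ± 0.36 (SE) and -3.19 ± 0.36. Rag2c/c p53-/- lymphoma 5 stood apart from the other 4, which were within 52 to 57.

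The transcription factors did not follow the granule and receptor genes. Tbx21 (ENSMUSG00000001444, chromosome 11) was at 101, 84 and 90 in thymus, at 207, 187, 662, 56 and 269 in Atm-/- lymphomas and at 1034, 689, 311, 825 and 704 in Rag2c/c p53-/- lymphomas. All Rag2c/c p53-/- lymphomas and 4 of the 5 Atm-/- lymphomas were above thymus, and Atm-/- lymphoma 4 was below it. The log2 difference from WT was 2.85 ± 0.59 (SE) for Rag2c/c p53-/- lymphomas and 1.18 ± 0.59 for Atm-/- lymphomas, where it was 0.76 without lymphoma 3 and 1.65 without lymphoma 4. In each of the 9 lymphomas with more Tbx21 than thymus, Gzmb, Nkg7, Klrd1, Ncr1, Xcl1 and Ccl5 were below thymus. Zbtb16 (ENSMUSG00000066687, chromosome 9) was at 110, 104 and 129 in thymus, at 378, 11, 43, 11 and 119 in Atm-/- lymphomas and at 399, 24, 673, 216 and 21 in Rag2c/c p53-/- lymphomas. Single lymphomas of either genotype lay above and below thymus, over a 34.4-fold range in Atm-/- and a 32.0-fold range in Rag2c/c p53-/- lymphomas against 1.24-fold in thymus. The mean of 112 ± 155 (SD, n = 5) in Atm-/- lymphomas was close to the WT mean of 114 ± 13.1 (n = 3), while the log2 difference was -1.22 ± 1.27 (SE), since 1 high library carries the mean. In Rag2c/c p53-/- lymphomas the log2 difference of 0.14 ± 1.27 was -0.47 without lymphoma 3 and 0.77 without lymphoma 5.

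**Figure D2:**
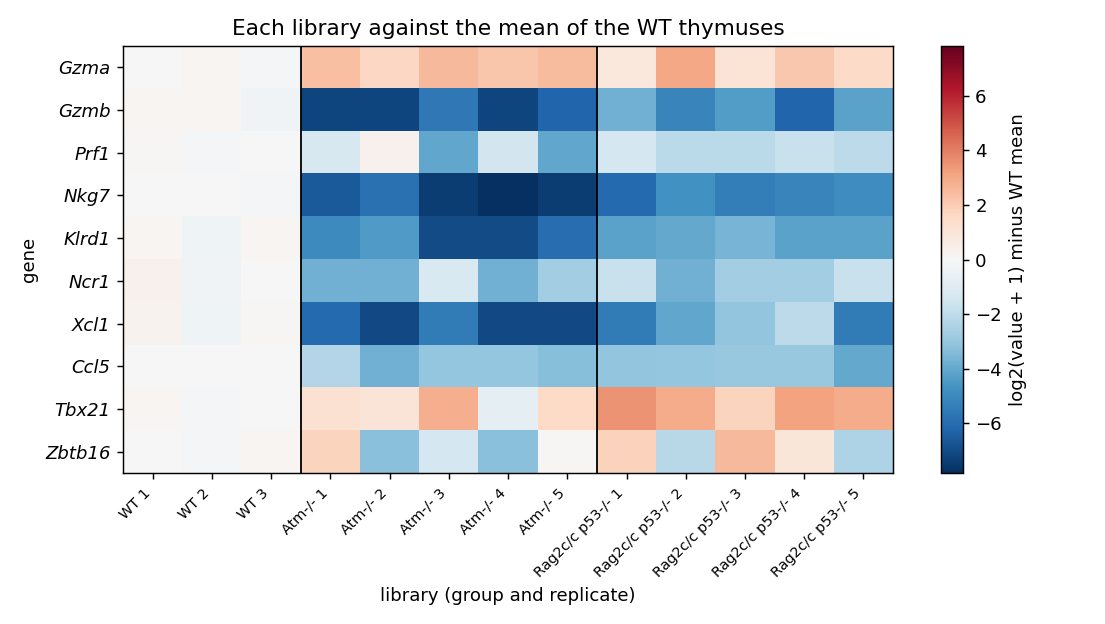
Each column is a library and each row a gene, coloured by log2(value + 1) minus the mean of the 3 WT thymuses (red above, blue below). Gzma is red and Gzmb, Nkg7, Klrd1, Xcl1 and Ccl5 are blue in all 10 lymphomas, Tbx21 is red in all lymphomas but Atm-/- 4, and Zbtb16 and Prf1 change between lymphomas of 1 genotype.

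Counted over the 10 genes, 1 was higher and 6 were lower than thymus in all Atm-/- lymphomas, and 3 overlapped. Of all 15872 genes tested, 23.4% were higher and 27.9% lower in this way, and 12.6% and 17.0% were called higher and lower by limma. In Rag2c/c p53-/- lymphomas 2 genes were higher (Gzma and Tbx21), 7 were lower and 1 overlapped, against 19.7% and 24.2% of all genes without overlap and 9.77% and 13.9% called. Between the lymphoma groups 1 gene, Klrd1, was lower without overlap in Atm-/- lymphomas and 9 overlapped, with backgrounds of 3.85% higher and 4.48% lower, and 3.51% and 4.33% called. Nothing is read from these counts, because the genes were chosen from such levels. All 10 genes passed the filter on low values (at least 10 in at least 3 libraries), Gzmb, Xcl1, Klrd1 and Ncr1 only by way of the WT thymuses. Gzmb, Klrd1 and Ncr1 are near 0 in lymphomas, so their log2 differences depend on the pseudocount of 1 and understate the change.

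**Figure D3:**
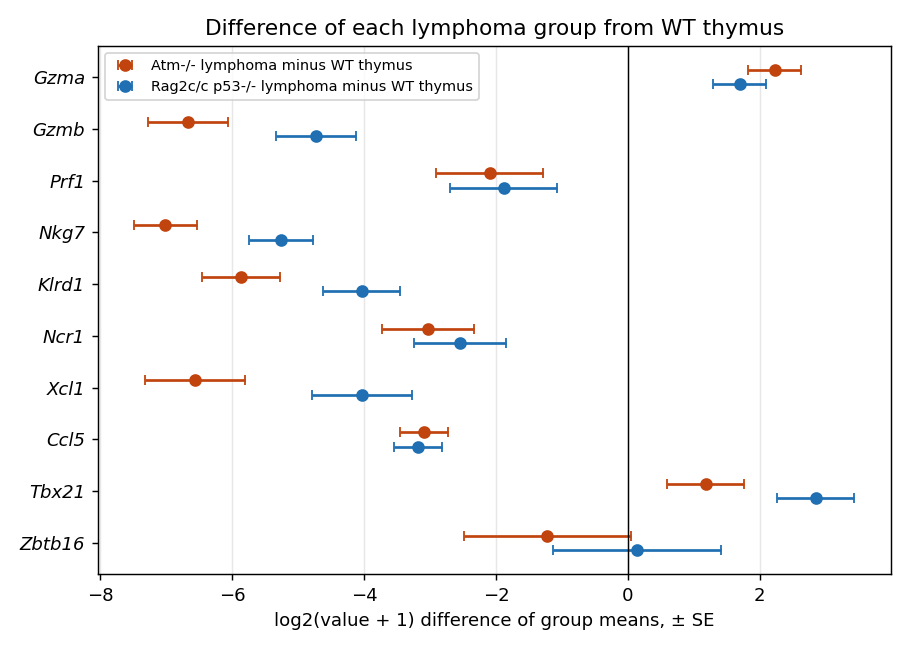
Difference of the group means of log2(value + 1) from WT thymus for each gene, with bars of ± 1 SE from the limma fit of 13 libraries, for Atm-/- lymphomas and Rag2c/c p53-/- lymphomas. The difference of Nkg7 is -7.01 and -5.26, that of Gzma 2.22 and 1.69, and the bars of Zbtb16 span 0 or come close to it.

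The other genes of these pathways were tested from lists of granule and killing genes, NK receptors, transcription factors, chemokines, cytokines and surface genes of innate-like T cells. These lists were drawn up with earlier results of these data known. Their shares beside those of all genes, here and below, are therefore a description and no independent support. A gene was called when its Benjamini-Hochberg adjusted p was under 0.05 (limma, over all 15872 genes), its log2 fold change reached 1 in either direction and either group had a mean of 10 or more. There were values for 96 listed genes, and 83 of them were tested. Of these 83, 11 passed the filter only by way of WT libraries, the group where they were high, and all 11 were called lower in each lymphoma group, a direction that the filter had fixed. They are left out of the counts against WT that follow, a choice made after seeing the data. Of the remaining 72 genes, 6 rose (8.33%) and 25 fell (34.7%) in Atm-/- lymphomas, with a median log2 fold change of -0.64, against 12.6% called higher, 17.0% called lower and a median of -0.02 over all genes tested. In Rag2c/c p53-/- lymphomas 7 rose (9.72%) and 29 fell (40.3%), with a median of -1.18, against 9.77%, 13.9% and -0.02. The shares over all genes include genes that passed only by way of WT libraries. The 2 comparisons share the 3 WT thymuses. With the 11 genes, 42 pathway genes were called in Atm-/- lymphomas and 47 in Rag2c/c p53-/- lymphomas. When each library was left out in turn, 34 of these 42 calls and 32 of these 47 were never lost, and 9 of these in each comparison could not be fitted without a WT thymus, since fewer than 3 libraries then reached 10. The number of calls was 28 in Atm-/- lymphomas without WT thymus 1 or without WT thymus 2, and in Rag2c/c p53-/- lymphomas it was 26 without either of these and 25 without WT thymus 3. Pathway genes named with a call against WT thymus below are among those never lost, unless stated. Calls of neighbouring genes outside the lists were not followed in this way.

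In the granule list, 1 of 10 genes (10%) fell in Atm-/- lymphomas and 4 (40%) fell in Rag2c/c p53-/- lymphomas, and none rose (limma). Over all genes, 17.0% and 13.9% were called lower and 12.6% and 9.77% higher, in the same order. Gzmc and Fasl had passed only by way of WT thymus. Ctsw, which encodes the cathepsin of cytotoxic cells, was at 1450 to 1485 in thymus, 85 to 258 in Atm-/- and 50 to 214 in Rag2c/c p53-/- lymphomas (log2 fold change -3.39 ± 0.46 (SE), adjusted p = 9.3e-05, and -3.48 ± 0.46, adjusted p = 0.00012, limma). Fasl, the death ligand of activated killers, was at 42 to 45 in thymus, 0 to 7 in Atm-/- and 0 to 3 in Rag2c/c p53-/- lymphomas. Gzmc lies 24.2 kb from Gzmb and was at 10 to 18 in thymus and at 0 in all 5 Atm-/- lymphomas, which makes it at least 3.01-fold lower against a floor of 3 reads per library. Gzmk, the neighbour granzyme of Gzma in the genome, did not reach the filter. It was at 6, 3 and 4 in thymus, at 0 to 1 in Atm-/- and at 0 to 6 in Rag2c/c p53-/- lymphomas. Unc13d and Stxbp2, genes of granule release, were not called in either lymphoma group. Unc13d, the priming factor of granule release, was at 3116 to 3414 in thymus, 2211 to 3260 in Atm-/- and 1168 to 2606 in Rag2c/c p53-/- lymphomas (log2 fold change -0.33 ± 0.22 and -0.83 ± 0.22), and Stxbp2, a partner of syntaxin, was at 2171 to 3896 over the 10 lymphomas. Rab27a, which docks granules at the membrane, fell in Rag2c/c p53-/- lymphomas (log2 fold change -1.67 ± 0.27, adjusted p = 0.00054, limma) and had a value of -0.55 ± 0.27 in Atm-/- lymphomas. Serpinb9, the intracellular inhibitor of granzyme B, was at 254 to 368 in Atm-/- lymphomas and at 108 to 165 in Rag2c/c p53-/- lymphomas, without overlap.

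In the receptor list, 6 of 12 genes fell (50%) and 2 rose (16.7%) in Atm-/- lymphomas, and 5 fell (41.7%) and 1 rose (8.33%) in Rag2c/c p53-/- lymphomas. The shares over all genes were 17.0% lower and 12.6% higher in the first comparison, and 13.9% and 9.77% in the second. Klrc1, Klrc2, Klre1, Klri2 and Itga2 had passed only by way of WT thymus. Klrk1 and Klre1, the tested genes next to Klrd1 on chromosome 6, were also lower than thymus. Other lectin-like receptors of the list did not all follow. Klrb1f was at 33 to 39 in thymus, 2 to 14 in Atm-/- and 9 to 64 in Rag2c/c p53-/- lymphomas, and was called lower only in Atm-/- lymphomas. Klrb1b was called in neither group, at 10 to 25 in thymus, 5 to 19 in Atm-/- and 3 to 28 in Rag2c/c p53-/- lymphomas. Klrk1, which encodes the activating receptor NKG2D, lies 11.6 kb from Klrd1 and was at 88 to 131 in thymus, 0 to 5 in Atm-/- and 3 to 13 in Rag2c/c p53-/- lymphomas (log2 fold change -5.53 ± 0.68 and -3.65 ± 0.68, adjusted p = 4.5e-05 and 0.0012, limma). Klrc1, which encodes the NKG2A partner of CD94, was at 28 to 39 in thymus and at 0 to 3 in all lymphomas. Klrc2 was at 16 to 50 in thymus and at 0 in all Atm-/- lymphomas, at least 8.21-fold lower. Neighbouring NK receptor genes are similar in sequence, and only uniquely mapped reads were counted, so reads of shared sequence are missing from each. Cd226, which encodes the adhesion receptor DNAM-1, was at 620 to 809 in thymus, 5 to 30 in Atm-/- and 10 to 128 in Rag2c/c p53-/- lymphomas (log2 fold change -5.98 ± 0.75 and -4.82 ± 0.75). The receptor genes that rose encode Fc receptor chains found on NK and myeloid cells. Fcgr3 was at 84 to 150 in thymus, 274 to 611 in Atm-/- and 132 to 461 in Rag2c/c p53-/- lymphomas (1.92 ± 0.38 and 1.31 ± 0.38), and the second call was lost without WT thymus 2 (1.08, adjusted p = 0.0802, limma). Fcer1g had a log2 fold change of 1.09 ± 0.27 in Atm-/- lymphomas, which was under 1 without WT thymus 2 (0.997) or Atm-/- lymphoma 4 (0.93). Tyrobp and Hcst, adaptors of the activating receptors, were not called and were at 213 to 541 and 296 to 1000 over the 10 lymphomas.

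Of 18 transcription factors, 2 rose (11.1%) and 6 fell (33.3%) in Atm-/- lymphomas, and 4 rose (22.2%) and 6 fell (33.3%) in Rag2c/c p53-/- lymphomas. Over all genes, 12.6% were called higher and 17.0% lower in the first comparison, and 9.77% and 13.9% in the second. The rises in Atm-/- lymphomas were near the share over all genes. Tox2, a factor of the TOX family active in NK cell development, rose from 228 to 250 in thymus to 2711 to 5293 in Atm-/- and 747 to 3428 in Rag2c/c p53-/- lymphomas (log2 fold change 4.09 ± 0.39 and 2.48 ± 0.39, adjusted p = 7.0e-06 and 0.00039, limma). Nfil3, required for NK cell development, was at 68 to 87, 148 to 265 and 193 to 916 in WT, Atm-/- and Rag2c/c p53-/- libraries (1.41 ± 0.41 and 2.56 ± 0.41), and the call for Atm-/- lymphomas was lost without WT thymus 1 (1.32, adjusted p = 0.0569, limma). Runx3, a regulator of cytotoxic CD8+ T cells, rose in Rag2c/c p53-/- lymphomas, at 2753 to 5885 against 1413 to 1761 (1.36 ± 0.28, adjusted p = 0.0022, limma), and had a value of 0.52 ± 0.28 in Atm-/- lymphomas. Egr2, induced by T cell receptor signals in NKT precursors, fell to 32 to 66 in Atm-/- and 30 to 75 in Rag2c/c p53-/- lymphomas from 770 to 965 (-4.13 ± 0.35 and -4.28 ± 0.35, adjusted p = 2.7e-06 and 4.3e-06, limma). Stat4, which relays IL-12 signals, fell from 448 to 642 to between 8 and 34 in Atm-/- and between 19 and 274 in Rag2c/c p53-/- lymphomas. Eomes, the T-box partner of T-bet in NK and memory cells, had passed the filter only by way of WT thymus. It was at 36 to 73 in thymus, at 0 to 5 in Atm-/- and at 3 to 51 in Rag2c/c p53-/- lymphomas, where it overlapped thymus. The T-box genes Tbx21 and Eomes thus stood on opposite sides of thymus in Atm-/- lymphomas 1, 2, 3 and 5.

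Cytokine receptor genes of these cells lay on either side of thymus. Il12rb2, the signalling chain of the IL-12 receptor, rose from 663 to 713 in thymus to 1861 to 5879 in Atm-/- lymphomas (2.54 ± 0.38, adjusted p = 0.0002, limma). Il2rb, the IL-2 and IL-15 receptor chain on which NK cells depend, fell from 1309 to 1529 to 75 to 154 in Atm-/- and 38 to 596 in Rag2c/c p53-/- lymphomas (-3.76 ± 0.68 and -2.76 ± 0.68). Il18r1, which binds IL-18, fell from 231 to 260 to 7 to 28 and 6 to 59 (-4.18 ± 0.64 and -3.70 ± 0.64). Over 11 cytokine genes 1 rose (9.09%) and 4 fell (36.4%) in Atm-/- lymphomas, and 1 rose (9.09%) and 5 fell (45.5%) in Rag2c/c p53-/- lymphomas. Il15, Il12b and Il4 had passed only by way of WT thymus. Over all genes, 12.6% were called higher and 17.0% lower in Atm-/- lymphomas, and 9.77% and 13.9% in Rag2c/c p53-/- lymphomas. The rises in the cytokine and chemokine lists were near these shares. The chemokine list of 10 tested genes had 1 rise (10%) and 5 falls (50%) in Atm-/- and 1 rise (10%) and 4 falls (40%) in Rag2c/c p53-/- lymphomas. The rise in Atm-/- lymphomas was that of Ccl3, an inflammatory chemokine (2.76 ± 0.82), lost without WT thymus 2 (1.31, adjusted p = 0.0527, limma). The rise in Rag2c/c p53-/- lymphomas was that of Cxcr3 (1.31 ± 0.49), lost whichever library of the groups compared was left out (1.21 to 1.40). In Atm-/- lymphomas Cxcr3 was called lower (-1.69), and this call was kept whichever library of the groups compared was left out. Cxcr6, a homing receptor of NKT cells, fell in Rag2c/c p53-/- lymphomas from 175 to 236 to 3 to 46 (-3.90 ± 0.96, adjusted p = 0.0064, limma). Xcr1, the receptor for Xcl1 on dendritic cells, fell in Rag2c/c p53-/- lymphomas from 55 to 103 to 10 to 38 (-2.33 ± 0.45, adjusted p = 0.0015, limma). Of 11 surface genes of innate-like T cells none rose, 3 fell (27.3%) in Atm-/- lymphomas and 5 (45.5%) in those of Rag2c/c p53-/- mice, against the same shares over all genes. Icos was at 1316 to 1455 in thymus, 12 to 154 in Atm-/- and 21 to 154 in Rag2c/c p53-/- lymphomas, and Cd1d1, which presents lipids to NKT cells, was at 1557 to 1699, 305 to 804 and 389 to 521. The γδ T cell receptor constant gene Tcrg-C1 was not called and ranged from 299 to 3453 in Atm-/- and from 43 to 1463 in Rag2c/c p53-/- lymphomas.

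**Figure D4:**
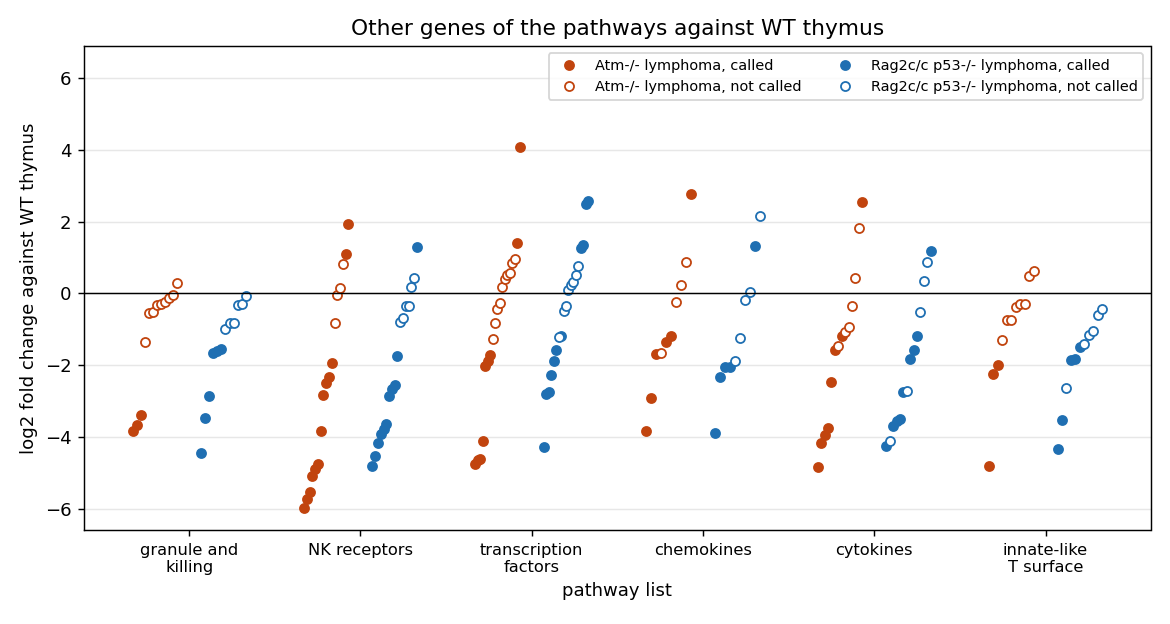
Log2 fold change of each tested pathway gene against WT thymus (limma), by list, for Atm-/- lymphomas and Rag2c/c p53-/- lymphomas. Filled points were called and open points were not. The plot shows all 83 tested genes, and 11 of the filled points below 0 in each comparison are genes that passed the filter only by way of WT thymus. Of the other 72 genes, 25 were called lower and 6 higher in Atm-/- lymphomas, and 29 lower and 7 higher in Rag2c/c p53-/- lymphomas.

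Between the lymphoma groups, 8 of the 83 pathway genes (9.64%) were higher and 6 (7.23%) lower in Atm-/- lymphomas than in Rag2c/c p53-/- lymphomas, against 3.51% and 4.33% of all genes, with a median log2 fold change of 0.19 against 0.02 over all genes. These 14 calls were 9 without Atm-/- lymphoma 1, 8 without Atm-/- lymphoma 4 and 8 with only the lymphomas in the fit. The lymphoma groups differ in strain as well as in genotype, which cannot be told apart here. Cxcr3, a chemokine receptor of type 1 T cells, was at 18 to 119 in Atm-/- and 240 to 409 in Rag2c/c p53-/- lymphomas (-3.0 ± 0.42, adjusted p = 0.0006, limma). Its level in thymus, 119 to 129, lay between. Crtam, a receptor of cytotoxic and NKT cells, was at 0 to 3 and 2 to 54 (-3.18 ± 0.74, adjusted p = 0.014, limma), and Cxcl10, a ligand of Cxcr3, was at 0 to 6 and 8 to 41 (-2.59 ± 0.57, adjusted p = 0.011, limma). Tox2, Serpinb9 and Tnfsf10, which encodes the death ligand TRAIL, were higher in Atm-/- lymphomas by 1.61 ± 0.34, 1.29 ± 0.21 and 1.32 ± 0.31 on the log2 scale (adjusted p = 0.0082, 0.0018 and 0.015, limma).

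Markers of cell types that a thymus suspension can hold were summed per library. The NK list (Ncr1, Klrb1c, Eomes, Klrk1, Klre1 and Itga2, of which 1 is among the 10 genes and the others are in the pathway lists) summed to 296 to 446 in thymus, 21 to 64 in Atm-/- and 13 to 68 in Rag2c/c p53-/- lymphomas, and each of its 6 genes was above 0 in some library of each group. Neutrophil markers summed to 1143 to 1480, 2 to 130 and 11 to 175, B cell markers to 1037 to 1285, 327 to 364 and 198 to 470, and dendritic cell markers to 658 to 1088, 221 to 547 and 175 to 643. Macrophage and monocyte markers were higher in Atm-/- lymphomas, at 6787 to 11959 against 4198 to 5358 in thymus, and were at 4009 to 8608 in Rag2c/c p53-/- lymphomas. Mast cell markers summed to 597 to 786, 23 to 1202 and 550 to 1434, with Ms4a2 at 0 in all lymphomas. Kit and Cpa3 made up most of each of these sums, since Mcpt4, Tpsb2, Cma1 and Ms4a2 were at 10 or less in every library. The thymocyte list, with Lck and Rag1, summed to 125790 to 186699 in thymus, 42116 to 82023 in Atm-/- and 67795 to 87178 in Rag2c/c p53-/- lymphomas, and the CD8 T cell list to 61733 to 95338, 25053 to 64517 and 40190 to 79408, so the libraries of all groups held abundant T lineage RNA. The NK, neutrophil, B cell, dendritic cell and thymocyte sums were thus lower than thymus in every lymphoma, as were Gzmb, Nkg7, Klrd1, Xcl1, Ccl5 and Ncr1. Single genes of these lists did not all follow their sum. Lck and Ptcra overlapped thymus in each lymphoma group, and Ptcra reached 8050 in Atm-/- lymphomas against 1107 to 1420 in thymus. Cd22 and Clec9a, among others, overlapped thymus in Atm-/- lymphomas. The NK sum holds Ncr1 itself. Fcgr3 was called higher in each lymphoma group. The macrophage and monocyte sum overlapped thymus in Rag2c/c p53-/- lymphomas. Within it, Cd68 was above thymus in every Rag2c/c p53-/- lymphoma, at 979 to 1825 against 432 to 492. Lyz2, Csf1r, Emr1, Mpeg1 and Itgam overlapped thymus in that group. In Atm-/- lymphomas Lyz2 and Cd68 were above thymus in every library, and Csf1r, Emr1, Mpeg1 and Itgam overlapped thymus. The part of these cell types in the results was not tested.

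**Figure D5:**
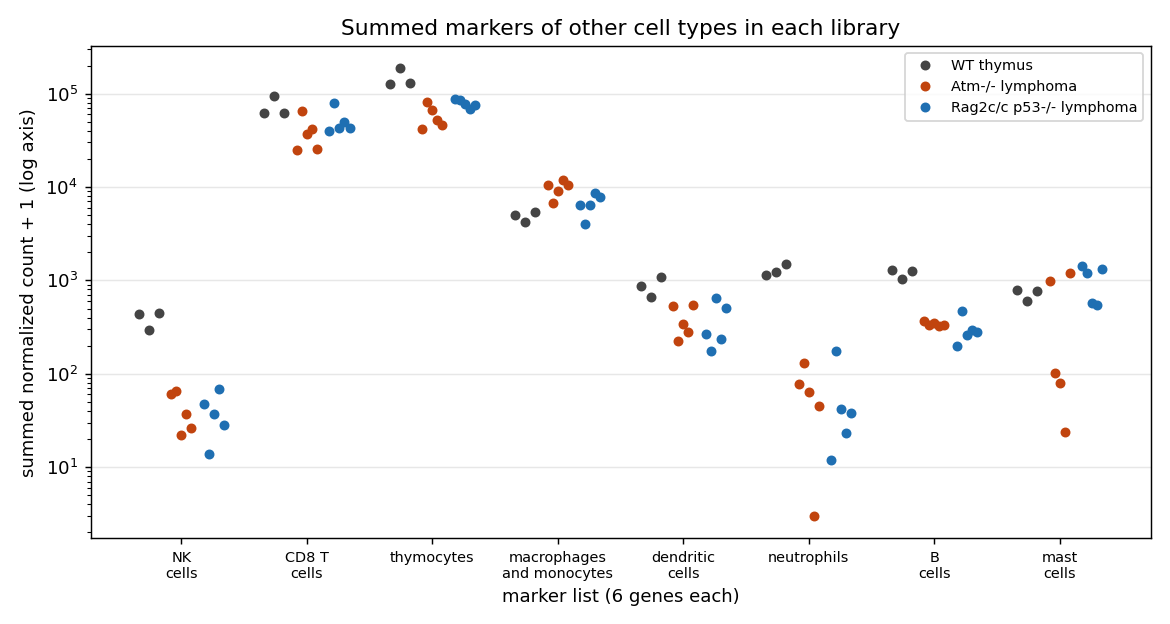
Sum of the normalized counts of 6 marker genes per cell type, plus 1 (log axis), in each library of WT thymus, Atm-/- lymphomas and Rag2c/c p53-/- lymphomas. NK markers are at 296 to 446 in thymus and at 13 to 68 in the 10 lymphomas, while macrophage and monocyte markers are not lower in Atm-/- lymphomas than in thymus.

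The genes whose pattern over the 10 lymphomas was most like that of each of the 10 genes were found by Pearson's r of log2(value + 1), as a description. The lymphomas share genotype and depth in part, and each gene is the best of all tested genes. For Gzma it was Cdc5l (r = 0.96, at 3647 to 4556), for Tbx21 it was Cacng4 (r = 0.96, at 39 to 8106) and for Zbtb16 it was BC003331 (r = 0.94, at 276 to 530). Xcl1 was most like Crtam (r = 0.97, at 0 to 54), a gene of the receptor list. For Prf1, Notch3 was among the 5 most alike (r = 0.92, at 521 to 8344). Among the 10 genes themselves, Nkg7 and Klrd1 were the most alike pair (r = 0.92 over 10 lymphomas), Gzma and Gzmb had r = -0.52, and Tbx21 had r = -0.13 with Gzma.

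The tested genes next to each of the 10 genes in the genome were looked up after the values had been seen. Of these 20 neighbours, 3 were called higher and 5 lower in Atm-/- lymphomas, and 3 higher and 4 lower in Rag2c/c p53-/- lymphomas (limma). The lower calls of each comparison include Gzmc and Klre1, which passed the filter only by way of WT thymus, so the filter had fixed their direction. Gzmc, Klre1 and Klrk1 are also genes of the pathway lists. Counts this small were near the shares over all genes, 12.6% higher and 17.0% lower in the first comparison and 9.77% and 13.9% in the second. Ccl9, 42.4 kb from Ccl5 and a chemokine of myeloid cells, had means of 49.3 in thymus, 356 in Atm-/- lymphomas and 346 in those of Rag2c/c p53-/- mice, while Ccl5 was lower than thymus in all of them. Esm1, 109 kb from Gzma, had means of 63.3, 501 and 234 (log2 fold change 2.56 ± 0.58 and 1.799 ± 0.58, adjusted p = 0.0034 and 0.0273, limma). Siglecg, beside Nkg7, was lower in each lymphoma group by the same test (-1.84 ± 0.55 and -2.71 ± 0.55).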

How the data were processed

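RNA sequencing of 13 libraries was analysed. Per the labels and methods, the authors prepared stranded mRNA libraries, used STAR 2.4.0g1 for alignment to GRCm38 and Picard for the removal of duplicates, counted unique reads per Ensembl gene with HTSeq-count and normalized with DESeq2 1.6.3. The deposited values are normalized counts rounded by the authors to whole numbers, a score and not raw counts, as read from the values. Strand of counting was not given in the sources used here. The table also holds group means, fold changes, log2 fold changes, p-values, adjusted p-values and dispersions of the authors, which were not used.

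The worth of 1 read was estimated from the frequencies of low values. In 3 libraries it was known up to a factor of 2 and the larger step was taken. limma 3.58.1 in R 4.3.3, with trend and robust moderation, was fitted to log2(value + 1) of all 13 libraries in 3 groups, for genes at 10 or more in at least 3 libraries. The fit was tested on simulated data. Exon lengths came from GENCODE gene models. Tables were handled in Python 3.11.15.

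The 10 genes and all lists were chosen with earlier results of these data known. Named pathway genes were those called with the 5 highest or 5 lowest fold changes per list and comparison, and genes outside this rule (Stxbp2, Unc13d, Gzmk, Klrb1b, Tyrobp, Hcst, Tcrg-C1 and the neighbours) were picked after their values had been seen. Alternatives covered scaling, filter, pseudocount, fold threshold, groups in the fit and each library left out. Replicate numbers of lymphomas follow the order of the samples and pair nothing. Separate mice are named for the lymphomas.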

Additional observations from a re-analysis of the deposited data

Results flagged for a closer look

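Ccl5 in Rag2c/c p53-/- lymphoma 5, at 27 normalized counts, was far from the other 4 lymphomas of its genotype, the nearest of which was at 52. On the scale of log2(value + 1) the gap was 0.876 of the whole range. About 1 in 20 groups is picked out in this way by chance, and 20 groups of 5 lymphomas were looked at.

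Some pathway genes differed between the lymphoma groups themselves (limma, adjusted over all genes). Values are log2 fold changes of Atm-/- over Rag2c/c p53-/- lymphomas. Serpinb9 (1.29), Tnfsf10 (1.32), Tox2 (1.61), Crtam (-3.18), Cxcl10 (-2.59) and Cxcr3 (-3.0) kept the call whichever of the 10 lymphomas was left out. Rab27a (1.12) fell under 1 without Atm-/- lymphoma 4 (0.995) or Rag2c/c p53-/- lymphoma 1 (0.98), and Il12rb2 (1.35) lost the call without Atm-/- lymphoma 1 (1.22). Klrb1c (2.02) lost it without Atm-/- lymphoma 1, 2 or 4 or Rag2c/c p53-/- lymphoma 4 (lowest 1.72), and Cx3cr1 (1.81) without Atm-/- lymphoma 1 or 4 or Rag2c/c p53-/- lymphoma 5 (lowest 1.58). Klrb1f (-1.99) lost it without Atm-/- lymphoma 2, 3 or 4 or Rag2c/c p53-/- lymphoma 1, 2 or 5, where it was between -1.66 and -1.97. Eomes (-2.35) lost it without Atm-/- lymphoma 2, 4 or 5 or Rag2c/c p53-/- lymphoma 1, 3 or 4, between -1.82 and -2.44. Tcrg-C2 (3.25) lost it without Atm-/- lymphoma 1, 2 or 4 or Rag2c/c p53-/- lymphoma 1, 4 or 5, between 2.51 and 3.52. Stat4 (-1.97) lost it without any lymphoma other than Rag2c/c p53-/- lymphoma 3, between -1.53 and -2.16.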

How the results depend on the processing

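A pseudocount of 3 moved the log2 difference of Gzmb in Atm-/- lymphomas from -6.67 to -5.39, that of Xcl1 in Atm-/- lymphomas from -6.56 to -5.28 and that of Klrd1 in Rag2c/c p53-/- lymphomas from -4.04 to -3.73, since these genes are near 0 in lymphomas. Without a fold-change threshold 5884 genes were called in Rag2c/c p53-/- lymphomas in place of 3750. With only the lymphoma groups in the fit, 8 pathway genes were called between them in place of 14. Without the 11 genes that passed the filter only by way of WT thymus, an alternative chosen after seeing the data, 31, 36 and 13 were called in place of 42, 47 and 14. With each library left out in turn, the number of pathway genes called was between 28 and 43 in Atm-/- lymphomas, 25 and 50 in Rag2c/c p53-/- lymphomas and 8 and 15 between the lymphoma groups. The lowest counts of the first 2 were reached without a WT thymus, where genes high only in thymus can no longer reach 10 in 3 libraries and other genes lost the call on their adjusted p, and the lowest of the last without Atm-/- lymphoma 4. The counts over all genes were between 3401 and 4902, 2505 and 3956, and 934 and 1315. No result turned its direction under the alternatives that were planned, apart from differences without a test that were close to 0. Ncr1 was not fitted with recomputed size factors or equal totals, where its lowest thymus falls under the filter. Shallow libraries limit what can be said of genes at or under 3 reads. Strain and series were not separable from the group. No paired analysis was possible because the labels give the groups no common replicate numbers.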

Other observations

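Several genes of the lists varied between Atm-/- lymphomas as Prf1 did, with low values in lymphomas 3 and 5. This was seen after the data had been examined, and it was not tested. Prf1 was at 94, 283, 12, 81 and 12 in Atm-/- lymphomas 1 to 5. Il2ra, the α chain of the IL-2 receptor and a marker of early thymocytes, was at 4204, 17248, 50, 9640 and 93, and Blk, a Src family kinase of B and γδ T cells, was at 608, 671, 17, 887 and 32. Cd160, an NK and CD8+ T cell receptor, was at 839, 927, 53, 1124 and 123. Tcrg-C4 was at 1214, 1758, 81, 1047 and 129, and Slamf6, a receptor of NKT cell development, was at 4784, 7997, 1163, 8419 and 1428. Tbx21 went the other way in lymphoma 3, its highest Atm-/- library at 662, and Gzma was high in all 5.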
